A study of Homo sapiens with 9 samples.

Results

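The genes described here encode the transmembrane proteins of 3 kinds of cell junction, namely cadherins, claudins and connexins. Members were found by symbol among probe sets that the platform annotation assigns to exactly 1 gene, and each was represented by its probe set with the highest mean over all arrays. They number 54 of 19775 genes measured, with 21 cadherins, 20 claudins and 13 connexins, and they are covered by 101 probe sets. Expression was measured on 9 one-colour Affymetrix arrays of WA09, a single established human embryonic stem cell line, with 3 arrays for each condition. Pluripotent arrays hold untreated cells, damage arrays hold cells treated for 5 h with DOX (doxorubicin, a topoisomerase poison that breaks DNA), and differentiating arrays hold cells treated for 2 days with retinoic acid (RA) at 1 µM. RA was given in medium to which no FGF was added, so that comparison changes the growth factor together with RA. The protocols describe culture both on irradiated mouse fibroblasts and without feeders, and do not say which of these gave a given array. Whether arrays of 1 condition stem from independent cultures is not stated in the labels, and the p-values therefore reflect array-to-array spread that could be technical.

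Cadherins hold neighbouring cells together at adherens junctions by calcium-dependent binding, and their cytoplasmic tails are tied to actin through catenins. Claudins form the strands of tight junctions, which seal the space between epithelial cells and set which ions pass through it. Connexins assemble into gap junction channels that let small molecules and ions pass directly between cells. Human embryonic stem cells grow as compact epithelial colonies that depend on E-cadherin and are coupled by gap junctions.

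Values are normalised log2 intensities, and changes are differences of log2 means with the standard error (SE) from limma's fit over all 9 arrays. A gene is said to rise or fall where limma's p-value, adjusted by Benjamini-Hochberg over all 19775 genes, lies under 0.05. Intervals are limma's 95% intervals for the change and are not adjusted. Probe sets differ in how strongly they bind, so levels are compared mainly between conditions. Where members are sorted against the median or upper quartile probe set, their place is only a rough guide to their level. The median of all probe sets lay between 4.62 and 4.68 on every array, and for a gene below it no signal over background is shown, so that a fold against such a level may be a lower bound. Arrays of the same condition correlated at 0.996 to 0.998 across genes. The third pluripotent array had a limma array weight of 0.512, the lowest of the 9. Of 8 measured pluripotency markers all lay above the median probe set on every array, treated arrays included. This bears out the stem cell label, and does not tell the conditions apart. Their mean level was 12.01 to 12.10 on the pluripotent arrays, 11.84 to 11.95 on the damage arrays and 12.05 to 12.18 on the differentiating arrays. Single markers moved. SOX2 fell by 0.46 after DOX (adjusted p = 0.0024) and NANOG by 0.34 after RA (adjusted p = 0.036), and 0 rose in either comparison. Over all genes 5.67% rose and 9.6% fell after DOX, and 3.16% rose and 3.32% fell after RA. Between RA and DOX 4 of the 8 were higher after RA (SOX2, LIN28A, DNMT3B and L1TD1) and 0 were lower. Over all genes 12.6% were higher and 8.62% lower.

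Of the 54 members, 26 lay above the median probe set on all 9 arrays, 21 on none of them and 7 on some. The 12 that lay above the upper quartile of probe sets on every array were CDH1, CDH2 and CDH3 among cadherins, CLDN3, CLDN6, CLDN7, CLDN10, CLDN12, CLDN15 and CLDN19 among claudins, and GJA1 and GJC1 among connexins. The members that were never above the median included the cadherin genes CDH5, which marks endothelium, and CDH16 and CDH17, known from kidney and intestine. Among claudins they were CLDN2, CLDN8, CLDN14, CLDN18 and CLDN20, and among connexins GJA5, GJA10, GJB5, GJB6 and GJD4. In all, 13 members passed the test in at least 1 of the 3 comparisons and 41 in none, and 9 of the 13 lay above the median probe set on every array. Over all 19775 genes, 3019 passed after DOX, 1280 after RA and 4202 between RA and DOX. Genes passing in at least 1 comparison were not counted, so the 13 are not read as many or few.

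After DOX, 7 members rose (13.0% of 54, where 5.67% of all genes rose) and 1 fell (1.85%, where 9.6% of all genes fell). The members that rose were GJB2, CLDN23, CLDN7, GJB6, CLDN4, CDH10 and GJC1, and the one that fell was CLDN10. After RA, 2 members rose, CLDN4 and GJC1 (3.70%, against 3.16% of all genes), and 4 fell, CDH2, CDH11, GJA1 and CLDN6 (7.41%, against 3.32%). The share that rose after RA lay near that of all genes. Both comparisons use the same pluripotent arrays, so the changes are given side by side and not correlated. Between RA and DOX directly, 2 members were higher after RA (3.70%, against 12.6% of all genes) and 9 were lower (16.7%, against 8.62%). The higher members were CLDN4 and CLDN10, and the lower ones CDH2, CDH10, CDH11, CLDN6, CLDN7, CLDN23, GJB2, GJB5 and GJB6. Median changes over the 54 members were 0.08 after DOX, 0.01 after RA and −0.05 between RA and DOX. Over all genes the medians were −0.005, −0.004 and −0.004. The members that did not pass ranged from −0.30 to 0.40 after DOX and from −0.30 to 0.37 after RA.

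**Figure D1:**
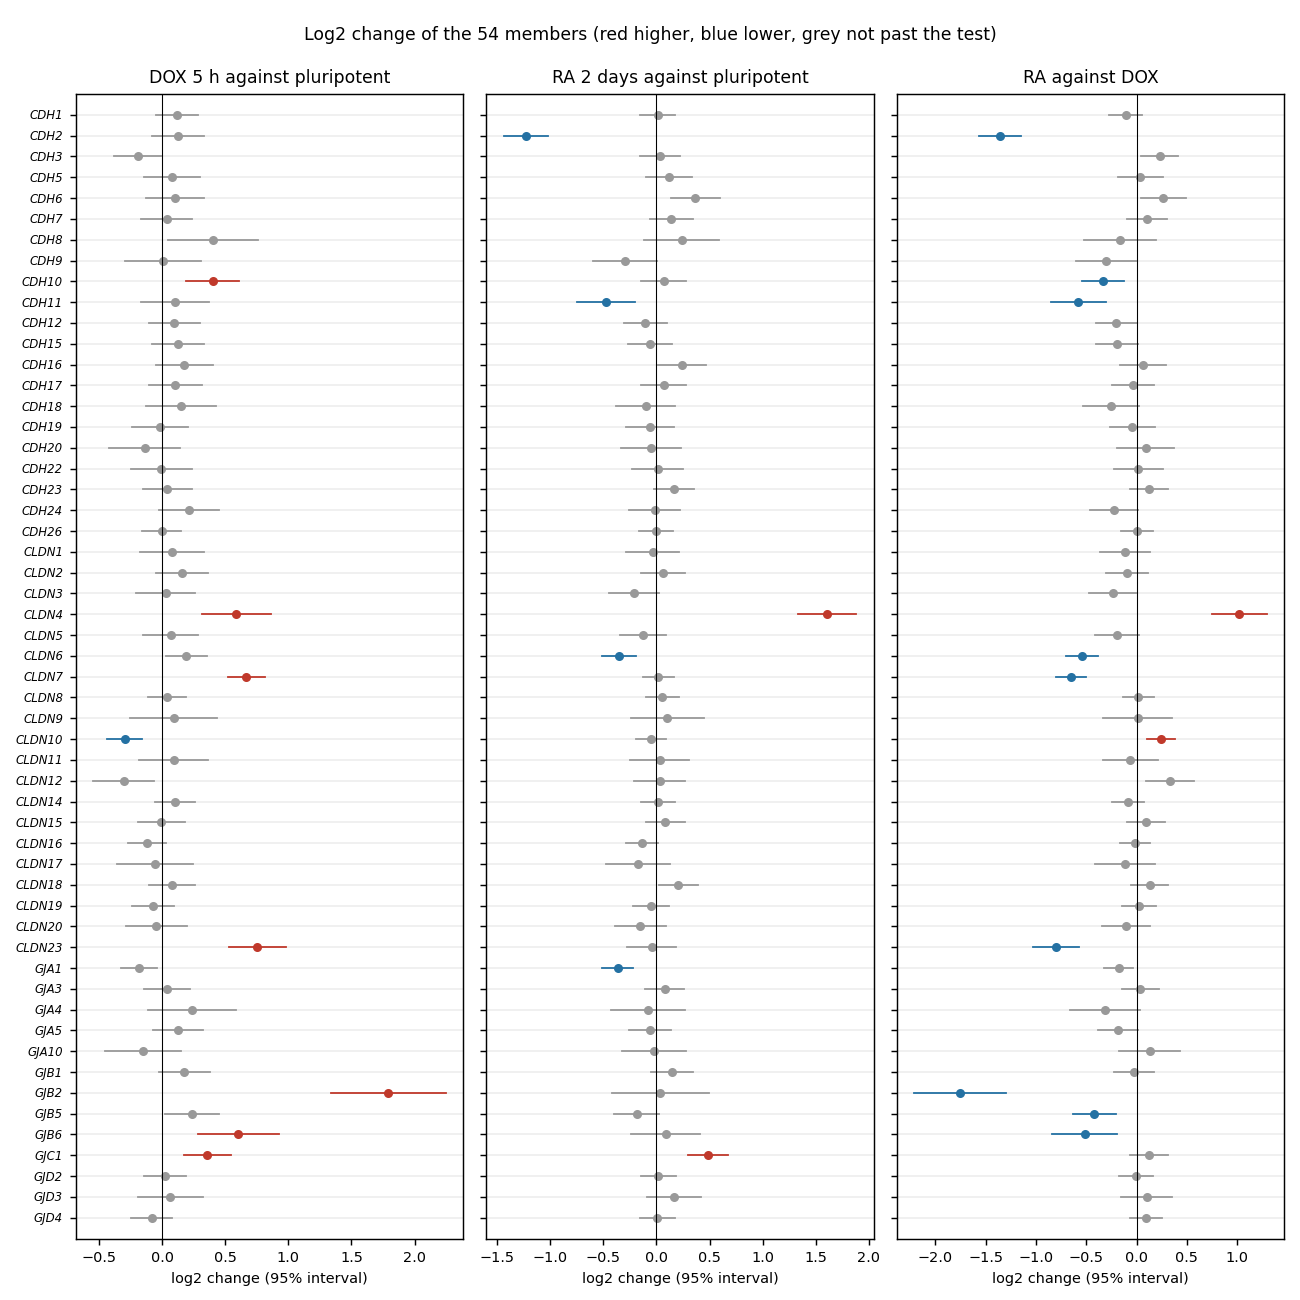
Log2 change of each of the 54 members (rows, grouped as cadherins, claudins and connexins) in the 3 comparisons (panels), with points for the estimate and lines for limma's 95% interval. Red members rose, blue members fell and grey members did not pass the test, and most lie close to 0, with GJB2 at 1.79 after DOX and CLDN4 at 1.61 and CDH2 at −1.23 after RA standing farthest out.

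Among the cadherins, CDH2 fell after RA while CDH1 and CDH3 did not pass the test in any comparison. CDH2 encodes N-cadherin, the classical cadherin of neural and mesenchymal cells. It measured 8.85, 8.75 and 8.88 on the pluripotent arrays, 8.74, 9.07 and 9.05 on the damage arrays, and 7.64, 7.53 and 7.63 on the differentiating arrays. All 3 differentiating arrays lay more than a log2 unit below every other array, and the pluripotent and damage arrays overlapped. The fall after RA was 1.23 on the log2 scale (SE 0.09, adjusted p = 1.6e-05), to 0.427 times the pluripotent level. The other probe set of the gene fell by 0.72 (adjusted p = 7.4e-04 over all probe sets). In a bulk measurement such as this one, fewer cells that express a gene and less RNA per cell cannot be told apart. Of 6 neural markers 2 rose after DOX, ZIC1 by 0.40 and NES by 0.94, and after RA ZIC1 rose by 0.46 while NES fell by 0.76. Over all genes 5.67% rose after DOX, and after RA 3.16% rose and 3.32% fell. PAX6 and SOX1, which define early neural cells, were at 4.83 and 4.53 on the pluripotent arrays and passed in neither comparison. The mean level of the 6 was 5.53 to 5.57 on the pluripotent arrays, 5.61 to 5.77 after DOX and 5.42 to 5.45 after RA, and their part in the CDH2 change was not tested.

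CDH1 encodes E-cadherin, which holds the stem cell colonies together. Its values were 11.37, 11.33 and 11.18 on the pluripotent arrays, 11.34, 11.43 and 11.47 after DOX, and 11.25, 11.35 and 11.32 after RA, so that the conditions overlapped. Its change was 0.12 after DOX (95% interval −0.05 to 0.28) and 0.01 after RA (−0.15 to 0.18). CDH3, its neighbour in the genome, encodes the related P-cadherin and lay at 9.59, 9.68 and 9.57, then 9.49, 9.36 and 9.42 after DOX, then 9.78, 9.69 and 9.49 after RA. The damage arrays all lay below the pluripotent ones, but the change of −0.19 (95% interval −0.38 to −0.01) did not pass (adjusted p = 0.17). Its change after RA was 0.04 (−0.15 to 0.22).

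The CDH2 decrease set RA apart from DOX as well. Between the treatments CDH2 was lower after RA by 1.36 (SE 0.09, adjusted p = 2.7e-06). CDH11, a cadherin of mesenchymal and bone-forming cells, was also lower after RA, at 6.03, 5.94 and 6.13 against 6.76, 6.5 and 6.27 on the pluripotent arrays and 6.61, 6.76 and 6.46 on the damage arrays. Its differentiating arrays all lay below the rest. The change against pluripotent was −0.48 (SE 0.12, adjusted p = 0.046), and it stayed past the threshold in 5 of 15 other settings. It rests on a probe set of the x_at class, which can bind several transcripts. Among single arrays left out, the call was kept without the third pluripotent array (−0.60) and lost without any of the 5 others (−0.35 to −0.53). In limma's fit over all probe sets, the one used did not pass after RA (adjusted p = 0.083). The other 3 probe sets of CDH11, with mean levels of 4.65, 3.76 and 3.16, gave −0.19, −0.08 and −0.04, none past the test. Without x_at and s_at probe sets the gene was at −0.08 (adjusted p = 0.84). Against DOX it was lower by 0.58 (adjusted p = 0.0064), a call lost without those probe sets (−0.01, adjusted p = 0.97) and with the mean of its probe sets (−0.19, adjusted p = 0.10).

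CDH10, a cadherin known from brain, rose slightly after DOX at a level below the median probe set. It measured 3.37, 3.49 and 3.56 on the pluripotent arrays, 3.68, 3.96 and 3.99 after DOX, and 3.47, 3.61 and 3.54 after RA. The damage arrays lay above all others, by 0.40 against pluripotent (SE 0.09, adjusted p = 0.015). The call was lost without the first pluripotent array (0.35, adjusted p = 0.070), without the second damage array (0.36, adjusted p = 0.059) and without the third (0.34, adjusted p = 0.059). Between RA and DOX it was at −0.33 (adjusted p = 0.028). That difference was lost without any of 4 arrays, namely the second or the third damage array (−0.29 and −0.28) and the first or the third differentiating array (−0.30 and −0.33). CDH6, a cadherin of kidney and neural crest, had differentiating arrays above all pluripotent ones (6.18, 6.31 and 6.49 against 5.76, 6.00 and 6.10), but its change of 0.37 did not pass (adjusted p = 0.063). The other cadherins passed in no comparison, and the farthest of them were CDH8 after DOX (0.40, adjusted p = 0.13) and CDH9 after RA (−0.30, adjusted p = 0.29).

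**Figure D2:**
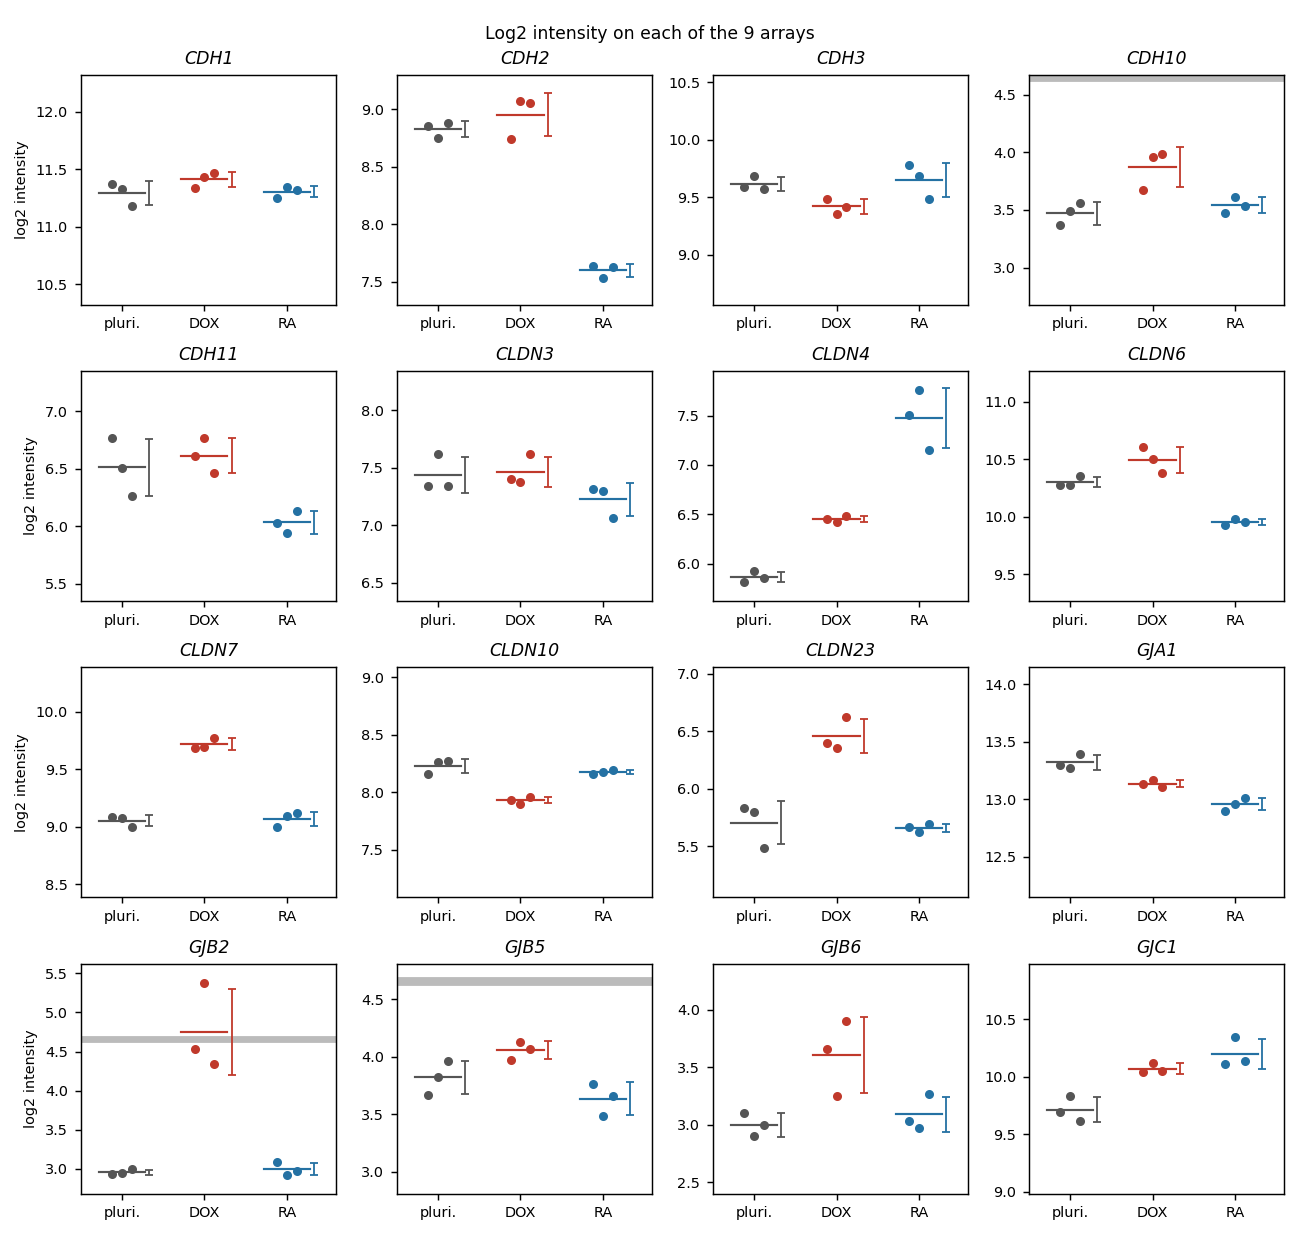
Log2 intensity (vertical axes) on each array for the 13 members that passed in at least 1 comparison and for CDH1, CDH3 and CLDN3, by condition (pluripotent in grey, DOX in red, RA in blue). Points are arrays, horizontal lines are means, bars are the SD over 3 arrays, and the grey band, where it falls within a panel, spans the median probe sets of the 9 arrays. CLDN4 steps up from 5.87 to 6.45 after DOX and 7.47 after RA, CDH2 is low only on the RA arrays, and GJB2 is raised on all 3 DOX arrays with a wide spread.

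In the claudin family only CLDN4 rose after both treatments. CLDN4, a sealing claudin of differentiated epithelia, measured 5.82, 5.92 and 5.86 on the pluripotent arrays, 6.45, 6.42 and 6.48 after DOX, and 7.51, 7.76 and 7.16 after RA. The 3 conditions did not overlap anywhere. CLDN4 rose 1.5-fold after DOX (0.59, SE 0.12, adjusted p = 0.0085) and 3.05-fold after RA (1.61, SE 0.12, adjusted p = 1.6e-05). The level after RA was higher than that after DOX by 1.02 (adjusted p = 1.6e-04). It kept these calls in every setting tried, although with the mean of its probe sets the changes were smaller, at 0.33 after DOX, 0.85 after RA and 0.53 between them. The other probe set of the gene, at a pluripotent level of 4.87, changed by 0.07 after DOX and 0.10 after RA and passed in neither. Where 5.67% of all genes rose and 9.6% fell after DOX, 5 of 8 markers of surface ectoderm and amnion rose and 0 fell. After RA, where 3.16% of all genes rose and 3.32% fell, 5 of these 8 markers rose and 0 fell. Their mean level was 6.97 to 7.01 on the pluripotent arrays, 7.5 to 7.61 after DOX and 8.09 to 8.42 after RA. The markers differed among themselves. TFAP2A, a factor that defines surface ectoderm, rose by 0.85 after DOX and by 4.55 after RA, and GATA3 by 1.34 and 3.20. KRT19 and ISL1 also had their highest mean after RA. KRT8 (9.39, then 9.87 after DOX and 9.52 after RA), KRT18 (11.004, 11.42 and 11.30) and IGFBP3 (6.37, 7.48 and 6.77) were highest after DOX, and KRT7 was highest on the pluripotent arrays (6.31, 6.29 and 6.02). The part of such cells in the CLDN4 change was not tested.

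CLDN3, which lies next to CLDN4 in the genome, did not follow it, with 7.35, 7.62 and 7.35 on the pluripotent arrays, 7.40, 7.37 and 7.62 after DOX, and 7.32, 7.30 and 7.06 after RA. Its changes were 0.03 (95% interval −0.21 to 0.26) and −0.21 (−0.45 to 0.02).

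CLDN7 and CLDN23 rose after DOX, and the direct comparison set them apart from RA. CLDN7, an epithelial claudin of the basolateral membrane as well as the junction, was at 9.08, 9.08 and 9.0 on the pluripotent arrays, 9.69, 9.70 and 9.78 after DOX, and 9.0, 9.09 and 9.12 after RA. The damage arrays stood clear of the rest and the other conditions overlapped. It rose 1.59-fold after DOX (0.67, SE 0.07, adjusted p = 7.1e-05), while its change after RA was 0.02 (95% interval −0.13 to 0.17) and the treatments differed by −0.65 (adjusted p = 5.0e-05). CLDN23 measured 5.83, 5.79 and 5.49, then 6.40, 6.35 and 6.62 after DOX, then 5.67, 5.62 and 5.69 after RA. Here too the damage arrays lay above all others. It rose 1.69-fold after DOX (0.75, SE 0.10, adjusted p = 6.6e-04) and differed between treatments by −0.80 (adjusted p = 2.6e-04). With the mean of its 3 probe sets the rise after DOX was 0.36 and the difference between treatments −0.43, both still past the threshold. That mean includes the probe set used. The others gave 0.28 and 0.06 after DOX and did not pass (limma's adjusted p = 0.35 and 0.81 over all probe sets).

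CLDN6, a claudin of embryonic epithelia and undifferentiated stem cells, fell after RA. It measured 10.28, 10.28 and 10.36 on the pluripotent arrays, 10.60, 10.51 and 10.38 after DOX, and 9.93, 9.98 and 9.95 after RA. The differentiating arrays lay below all others and the damage arrays above all pluripotent ones. The fall after RA was 0.35 on the log2 scale (SE 0.07, adjusted p = 0.015), or 0.059 as the adjusted p without the first differentiating array (−0.34). The rise of 0.19 after DOX did not pass (adjusted p = 0.11), and the treatments differed by −0.54 (adjusted p = 3.3e-04). A further probe set of CLDN6 was at −0.37 after RA (adjusted p = 0.071 over all probe sets). Its genomic neighbour CLDN9 did not pass in any comparison, at 0.09 after DOX and 0.10 after RA.

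CLDN10, a claudin whose forms make ion-selective pores, was the member that fell after DOX. Its values were 8.16, 8.26 and 8.27 on the pluripotent arrays, 7.93, 7.90 and 7.95 after DOX, and 8.16, 8.18 and 8.20 after RA. The damage arrays lay below all the rest, by 0.30 against pluripotent (SE 0.06, adjusted p = 0.0087). The treatments differed by 0.25 (adjusted p = 0.017), a call lost without the second damage array (0.23, adjusted p = 0.051), the second differentiating array (0.25, adjusted p = 0.053) or the third (0.24, adjusted p = 0.056), and with further quantile normalization (0.19, adjusted p = 0.064). With the mean of its 2 probe sets both calls were lost, at −0.18 after DOX (adjusted p = 0.17) and 0.16 between the treatments (adjusted p = 0.18). The remaining 15 claudins passed in no comparison. Their changes ran from −0.30 for CLDN12 to 0.16 for CLDN2 after DOX, and from −0.21 for CLDN3 to 0.21 for CLDN18 after RA. CLDN12 was also at 0.33 between RA and DOX (adjusted p = 0.053).

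**Figure D3:**
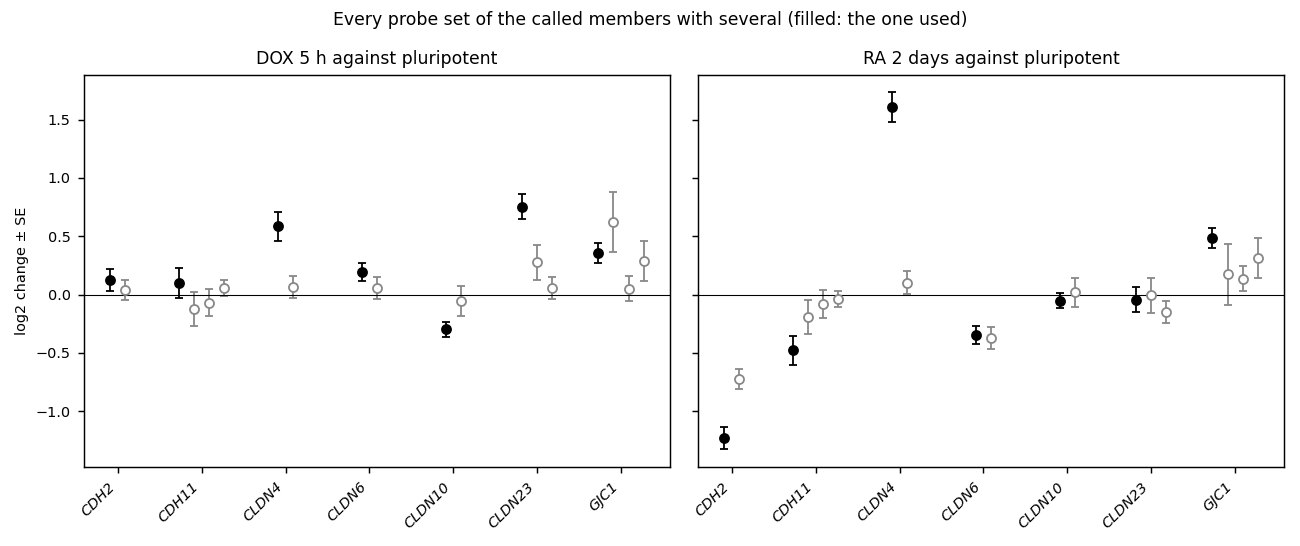
Log2 change (± SE, limma over all probe sets) after DOX (left) and after RA (right) for every probe set of the 7 members that passed and have several probe sets. Filled points are the probe sets used, and open points the others in order of mean level. Both probe sets of CDH2 and of CLDN6 lie below 0 after RA. Apart from the ones used, no probe set of CLDN4, CLDN6, CLDN10, CLDN23 or GJC1 passed in either comparison shown. For CDH11 no probe set passed in this fit, the one used included (limma's adjusted p = 0.083 after RA).

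Promoter sequences are shown for CLDN4 and CLDN7, which both rose after DOX but differed after RA, and for the neighbouring connexin genes GJB2 and GJB6 described next. No window was used for CLDN23. Each window runs from 250 bases before to 50 after the start site, in RefSeq's GRCh38.p14, and 35 of the 54 members had one. The motifs were TGANTCA for AP-1, AGGTCA for the core of retinoid receptor sites, CACCTG for the E-box of Snail and ZEB factors, GCCNNNGGC for TFAP2 and the p53 decamer, searched on both strands. A match is a description and not a binding site. CLDN4 (chr7:73830746-73831045, plus strand) held AP-1 matches starting at −242 and −161 and a retinoid core match at −219, and CLDN7 (chr17:7263164-7263463, minus strand) a retinoid core match at −41, all counted from the start site. These matches are in capitals and do not overlap.
CLDN4: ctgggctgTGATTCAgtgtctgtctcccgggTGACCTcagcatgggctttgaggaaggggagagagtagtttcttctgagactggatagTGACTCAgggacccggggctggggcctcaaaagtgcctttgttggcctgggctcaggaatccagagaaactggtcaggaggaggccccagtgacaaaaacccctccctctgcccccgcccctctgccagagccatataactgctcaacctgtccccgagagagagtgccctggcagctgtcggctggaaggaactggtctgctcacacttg
CLDN7: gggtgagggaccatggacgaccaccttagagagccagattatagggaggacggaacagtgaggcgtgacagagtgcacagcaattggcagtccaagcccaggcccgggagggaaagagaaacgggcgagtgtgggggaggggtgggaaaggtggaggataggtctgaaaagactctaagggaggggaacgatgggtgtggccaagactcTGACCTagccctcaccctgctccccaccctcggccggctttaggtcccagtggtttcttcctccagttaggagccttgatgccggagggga
AP-1 matches stood in 7.76% of 27305 promoters and in 5 of the 35 members with a window (14.3%), and CLDN4 was the member with 2. Retinoid core matches stood in 13.9% of all promoters and 14.3% of members, E-box matches in 20.6% and 20.0%, TFAP2 matches in 23.0% and 22.9%, and p53 decamer matches in 6.54% and 5.71%.

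Among the connexins, GJB2 gave the largest change of any member after DOX. GJB2 and GJB6 encode connexins of skin and inner ear and are neighbours in the genome. GJB2 measured 2.94, 2.94 and 2.99 on the pluripotent arrays, 4.54, 5.38 and 4.34 after DOX, and 3.08, 2.93 and 2.98 after RA. All damage arrays stood more than a log2 unit above the rest but differed among themselves, and the second damage array alone exceeded the median probe set. GJB2 rose 3.46-fold after DOX (1.79, SE 0.21, adjusted p = 1.9e-04), from a level below the median probe set, so that the fold may be a lower bound. Leaving out single arrays gave 1.48 to 2.00, all past the threshold. Its change after RA was 0.04 (95% interval −0.42 to 0.49), and the treatments differed by −1.75 (adjusted p = 1.3e-04).

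GJB6 also rose after DOX, and its call depended on single arrays. It measured 3.11, 2.90 and 3.0 on the pluripotent arrays, 3.66, 3.25 and 3.90 after DOX, and 3.04, 2.97 and 3.27 after RA. The damage arrays lay above all pluripotent ones, and the second of them was below the highest differentiating array. GJB6 rose by 0.60 after DOX (SE 0.15, adjusted p = 0.017), with every value under the median probe set. The call was lost without the first damage array (0.58, adjusted p = 0.054), the third (0.45, adjusted p = 0.058) or the second pluripotent array (0.55, adjusted p = 0.071). Between treatments it was at −0.51 (adjusted p = 0.028), which was lost without the first or the third damage array (−0.49 and −0.37) and without the first or the second differentiating array (−0.49 and −0.45), and when the fit held the 2 groups compared alone (adjusted p = 0.054). GJA3, the neighbour on the other side of GJB2, encodes a lens connexin and was at 0.04 after DOX (adjusted p = 0.82). GJB2 (chr13:20192889-20193188, minus strand) and GJB6 (chr13:20230929-20231228, minus strand) differ in their promoter windows. In GJB2 the capitals mark a TFAP2 match starting at −95 and an E-box match at −5, which do not overlap, and GJB6 held no match to any of the 5 motifs.
GJB2: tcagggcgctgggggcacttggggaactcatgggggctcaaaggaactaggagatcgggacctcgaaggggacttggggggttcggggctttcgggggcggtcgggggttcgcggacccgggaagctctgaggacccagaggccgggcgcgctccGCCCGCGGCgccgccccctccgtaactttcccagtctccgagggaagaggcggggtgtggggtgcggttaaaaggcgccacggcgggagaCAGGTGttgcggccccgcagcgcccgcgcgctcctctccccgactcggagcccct
GJB6: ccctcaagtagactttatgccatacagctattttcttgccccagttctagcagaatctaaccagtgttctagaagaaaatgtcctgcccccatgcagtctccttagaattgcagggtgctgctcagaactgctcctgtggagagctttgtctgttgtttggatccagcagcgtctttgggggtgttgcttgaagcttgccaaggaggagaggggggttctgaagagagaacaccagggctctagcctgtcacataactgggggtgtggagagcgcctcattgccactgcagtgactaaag
The ratio of observed to expected CpG was 0.875 in the GJB2 window and 0.102 in that of GJB6. Over the 14 members with a window that lay above the median probe set on every array this ratio had a median of 0.656, with a range of 0.088 to 1.04. Over the 16 that never did it had a median of 0.326 (0 to 0.685), and over all promoters 0.58.

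GJB5, a further connexin of skin and placenta, differed between the treatments without passing against the pluripotent arrays. It measured 3.67, 3.83 and 3.96 there, 3.97, 4.13 and 4.06 after DOX, and 3.77, 3.49 and 3.65 after RA. The damage arrays lay just above the pluripotent ones, whose range the differentiating arrays overlapped. Its changes were 0.24 after DOX (adjusted p = 0.14) and −0.18 after RA (adjusted p = 0.37), and RA against DOX gave −0.42 (SE 0.10, adjusted p = 0.0095), again below the median probe set.

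GJA1 and GJC1, the connexins above the upper quartile on every array, moved in opposite directions after RA. GJA1, which encodes the main gap junction protein of these cells, was at 13.30, 13.28 and 13.39 on the pluripotent arrays, 13.14, 13.17 and 13.11 after DOX, and 12.90, 12.96 and 13.01 after RA. The 3 conditions did not overlap. It fell by 0.36 on the log2 scale after RA (SE 0.07, adjusted p = 0.0069), to 0.777 times the pluripotent level. The change of −0.18 after DOX did not pass (adjusted p = 0.093), nor did the difference of −0.18 between the treatments (95% interval −0.33 to −0.03, adjusted p = 0.084).

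GJC1, a connexin of early embryos and of the heart's conduction system, rose after both treatments. It measured 9.69, 9.83 and 9.62 on the pluripotent arrays, 10.04, 10.12 and 10.05 after DOX, and 10.11, 10.34 and 10.13 after RA. Treated arrays all lay above the pluripotent ones, and the treatments overlapped. The rise was 0.36 after DOX (SE 0.08, adjusted p = 0.015) and 0.48 after RA (SE 0.08, adjusted p = 0.0055), and the difference of 0.13 between them did not pass (95% interval −0.06 to 0.31). The call after DOX was lost without the first pluripotent array (0.35, adjusted p = 0.058) or the second damage array (0.33, adjusted p = 0.054). With the mean of its 4 probe sets GJC1 was at 0.33 after DOX (adjusted p = 0.079) and 0.28 after RA (adjusted p = 0.23). The other 3 probe sets were at 0.62, 0.05 and 0.28 after DOX and at 0.17, 0.14 and 0.31 after RA, and did not pass. The connexins GJA4, GJB1, GJD2 and GJD3, with the low GJA3, GJA5, GJA10 and GJD4, passed in no comparison.

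Genes for the proteins that anchor or accompany these junctions were counted list by list. Shares over all genes were 5.67% higher and 9.6% lower after DOX, and 3.16% and 3.32% after RA. Between RA and DOX they were 12.6% and 8.62%. No list was tested against these shares. Of 9 measured catenins and related genes, 0 rose and 0 fell by limma's adjusted test in any of the 3 comparisons. In each comparison 2 had an unadjusted p under 0.05. CTNNB1, which encodes β-catenin, was at −0.03 after DOX and −0.16 after RA. Among 11 tight junction partners 2 rose and 1 fell after DOX. OCLN, which encodes the strand protein occludin, rose by 0.47 and MARVELD2, which encodes tricellulin of the corners where cells meet, by 0.33, while CGNL1, a cingulin-like adaptor, fell by 0.70. After RA 2 rose and 0 fell, the scaffold gene TJP3 by 0.61 and the adaptor gene CGN by 0.38. Of 13 desmosomal genes PERP (0.43) and DSC3 (0.28) rose and PKP4 fell by 0.43 after DOX, and PKP2 (1.37) and DSC2 (0.41) rose after RA. PERP is also a known p53 target. Among 5 nectins and their adaptor NECTIN1 rose by 0.41 after DOX and NECTIN3 fell by 0.68 after RA. Of 3 pannexins, channel proteins that resemble connexins, PANX1 fell by 0.43 after RA and after DOX 0 passed limma's adjusted test and 1 had an unadjusted p under 0.05. Of 13 polarity genes PARD6G rose by 0.40 and PALS1 fell by 0.29 after DOX, and PALS1 (0.39) and DLG1 (0.30) rose after RA.

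Regulators of epithelial and mesenchymal state were counted in the same way. Shares over all genes stood at 5.67% higher and 9.6% lower after DOX, and at 3.16% and 3.32% after RA. Between RA and DOX 8.62% of all genes were lower after RA. Of 10 measured epithelial regulators, mostly transcription factors, 4 rose and 2 fell after DOX, and 5 rose and 0 fell after RA. GRHL3, a grainyhead factor of surface epithelium, measured 4.86, 5.61 and 4.44 on the pluripotent arrays, 6.83, 6.81 and 7.0 after DOX, and 8.69, 8.59 and 8.39 after RA. Its steps, like those of CLDN4, did not overlap between conditions, with changes of 1.91 after DOX (adjusted p = 2.5e-04) and 3.59 after RA (adjusted p = 4.1e-06). The next farthest were OVOL1 after DOX (1.26) and ELF3 after RA (1.28). OVOL2 and ESRP1, which keep cells epithelial, fell by 0.76 and 0.50 after DOX. Of 7 factors that drive the epithelial to mesenchymal transition, 3 rose and 0 fell after DOX. These were TWIST1 (1.41, adjusted p = 1.1e-04) and SNAI2 (1.02, adjusted p = 2.0e-04), with SNAI3 at 0.59. SNAI1, ZEB1 and ZEB2 were at 0.13, 0.07 and 0.01 after DOX and did not pass. TWIST2 went the other way, at −0.27, and did not pass either (adjusted p = 0.093). Its damage arrays all lay below the pluripotent ones. ZEB1 and ZEB2 had pluripotent means of 3.87 and 3.44, below the median probe set. After RA 0 of the 7 rose and 0 fell by limma's adjusted test, and 0 had an unadjusted p under 0.05. The median changes over these 7 genes were 0.13 after DOX and 0.04 after RA, and over the 10 epithelial regulators 0.03 and 0.37. Between RA and DOX, 3 of the 7 were lower after RA.

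**Figure D4:**
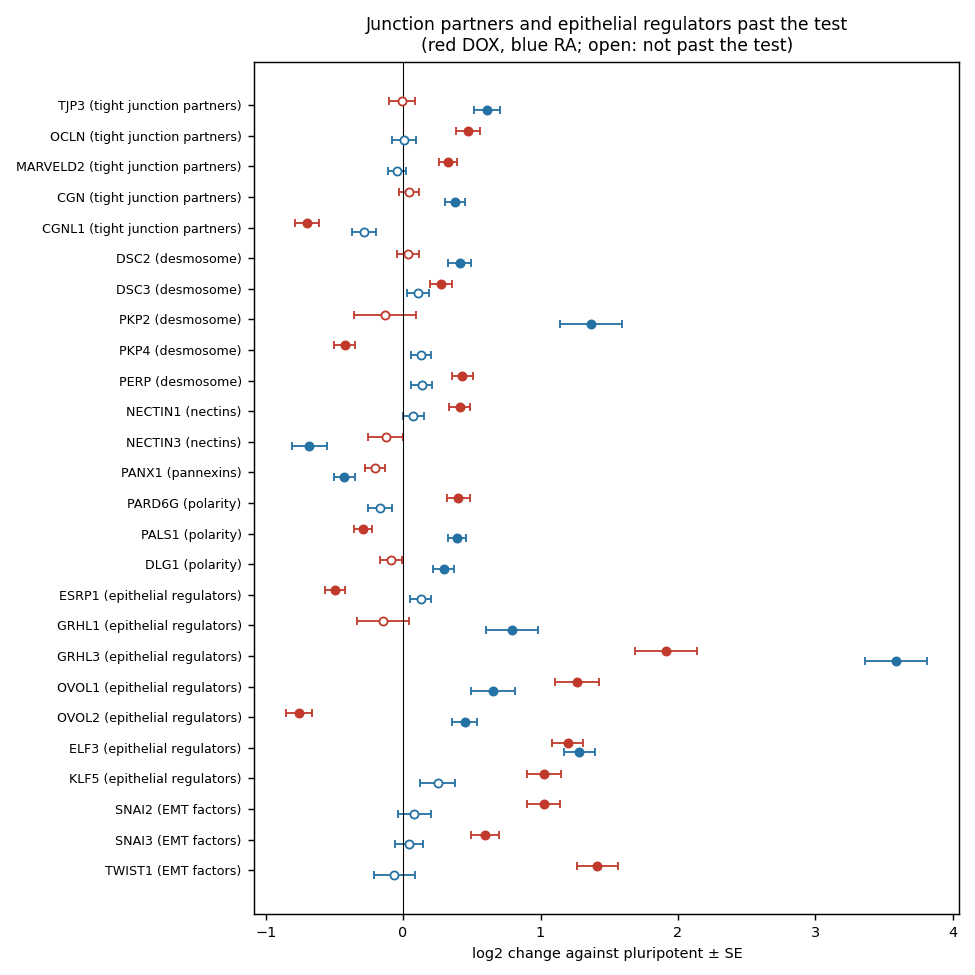
Log2 change against pluripotent (horizontal axis, ± SE) after DOX in red and after RA in blue for each junction partner, epithelial regulator or transition factor that passed in at least 1 of these comparisons, with its list in brackets. Filled points passed the test and open ones did not. GRHL3 lies farthest to the right, at 1.91 and 3.59, and OVOL2, PALS1 and CGNL1 lie to the left of 0 after DOX.

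Markers of fibroblasts and endothelium were also measured. Shares over all genes were 5.67% higher and 9.6% lower after DOX, and 3.16% and 3.32% after RA. Between RA and DOX 12.6% of all genes were higher and 8.62% lower. Of 10 fibroblast markers 2 rose and 1 fell after DOX and 2 rose and 1 fell after RA, while between RA and DOX 2 were higher and 2 lower. Their mean level was 5.99 to 6.09 on the pluripotent arrays, 6.18 to 6.22 after DOX and 6.08 to 6.16 after RA. COL1A1 rose after both treatments, by 1.08 after DOX and by 0.998 after RA. THY1 rose by 0.33 after DOX and fell by 0.37 after RA, PDGFRA fell by 0.42 after DOX, and COL3A1 rose by 0.57 after RA. Of the 10 markers 6 lay above the median probe set on all 9 arrays, among them COL1A1, COL1A2 and THY1 with pluripotent means of 10.37, 9.36 and 9.27. DCN lay near the median at 4.65, and LUM, POSTN and FAP lay below it at 3.12, 3.50 and 3.63. Of 8 endothelial markers 0 rose and 1, KDR, fell after DOX (−0.63). After RA 0 passed limma's adjusted test and 1 had an unadjusted p under 0.05. Their mean level was 5.07 to 5.16, then 5.03 to 5.14, then 4.90 to 5.07. The part of either cell type in the junction gene changes was not tested.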

How the data were processed

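Expression was measured in 9 samples of WA09 cells, 3 for each condition, on 1-colour Affymetrix arrays from TRIzol-extracted RNA, per the labels' protocols. The authors deposited 1 log2 value for each probe set and array, made with RMA in the package affy, per the submitters' processing notes. The sources used here name no version of either. This method corrects background, quantile-normalises and summarises probes. Quantile normalization removes shifts shared by most genes, and dim probe sets have compressed changes. That the scale is log2 was read from the values, 2.36 to 14.8. The number of arrays limits the precision.

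Of 54675 probe sets 62 controls were left out, and 41091 had exactly 1 gene. RefSeq (GRCh38.p14) matched 41037 of them by Entrez identifier, with 0 symbols updated. The probe set with the highest mean was kept for each of 19775 genes. limma 3.58.1 in R 4.3.3 (lmFit, eBayes; 6 residual and 4.63 prior degrees of freedom) fitted condition to all 9 arrays with no filter. The fit was tested on simulated data. Members, partner and marker lists, motifs and printed promoters were chosen with earlier results of these data known. All members are accounted for. Array values are given for members that passed in at least 1 comparison and for reference members. Up to 2 partners per list and direction are named. Also named are CTNNB1, SNAI1, SNAI3, TWIST2, ZEB1 and ZEB2, and some markers chosen after their values were seen. The alternatives were the choice of probe set, a filter on dim genes, the spread, the groups fitted, scaling, array weights, the replicate block and leaving out arrays.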

Additional observations from a re-analysis of the deposited data

How the results depend on the processing

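Of 25 changes of members that passed the test, 25 kept their sign in every setting in which the gene was tested. Of these, 14 also stayed past the threshold in all such settings, among them changes of GJB2 and GJB5, which the filter on dim genes left untested. The settings reuse the same arrays and are not independent checks. With genes below the median probe set left out, 5 members passed after DOX in place of 8, since GJB2, GJB6 and CDH10 were not tested. Among all genes then tested, 3260 passed after DOX in place of 3019. How many genes were then tested is not given here, so no shares are read from these counts. Without x_at and s_at probe sets 852 genes passed after RA in place of 1280, with fewer genes tested. Leaving out single arrays gave 6 to 9 members after DOX, 4 to 7 after RA and 9 to 12 between RA and DOX. The genes passing with single arrays left out numbered 2027 to 3351 after DOX and 861 to 1138 after RA. Their number between RA and DOX is not given here, so the 9 to 12 members are not read as many or few. The members passing with every probe set tested alone, a setting added after the data were seen, were 8, 5 and 11. All genes passing in that setting were not counted. With the replicate block 8, 6 and 11 members and 3081, 1287 and 4296 genes passed, against 8, 6 and 11 members and 3019, 1280 and 4202 genes without it. The block took CDH11 after RA to an adjusted p of 0.053. Deviations of same-numbered arrays correlated at −0.10 to 0.20, so the numbers were not taken to pair the arrays. Dim signals limit what can be said of the 21 members that were never above the median probe set.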
